A study of Mus musculus with 9 samples.

Results

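Globin and erythroid genes were followed in mouse liver through 5 members of the 21870 genes in the deposited mRNA table: the adult alpha globin copies Hba-a1 and Hba-a2, the adult beta globin copies Hbb-bs and Hbb-bt, and Alas2. They were taken by gene symbol, in a choice made with earlier results of these data known. The globin genes are read here as a rough measure of the red cell RNA that a liver sample holds, and Alas2, which did not follow them, is given beside them. All livers came from wild-type C57 BL6 mice aged 8 weeks and weighing 20 g on average, with 3 libraries per group. The dmPGE2+APAP mice received 300 μg/kg of dmPGE2, a long-lived synthetic relative of prostaglandin E2, into the peritoneum 1 h before acetaminophen (APAP, an analgesic that injures the liver in overdose) at 500 mg/kg. The APAP mice received the same APAP dose alone, the controls received saline, and livers were collected 6 h after APAP. The prefix of the control columns is not explained by the labels, and those columns were taken as controls since every other column is named for a treatment. Whether the livers were flushed of blood before freezing is not given in the sources used here.

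Haemoglobin, the oxygen carrier of red cells, is built from alpha and beta globin chains, each of which holds a haem group. Mature mammalian red cells have no nucleus, and the globin mRNA found in blood sits mostly in reticulocytes, the young red cells that have just left the marrow. Alas2 encodes the erythroid form of 5-aminolevulinate synthase, the enzyme that starts haem synthesis, while its relative Alas1 serves the other tissues and is abundant in hepatocytes. The adult liver makes few red cells, although it is the site of red cell production in the fetus. In whole tissue, more red cells cannot be told apart from more globin RNA per red cell.

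The copies of each globin gene are close to identical in sequence, which sets how far they can be read one by one. Over 426 coding bases Hba-a1 and Hba-a2 differed at 1 base, C381T, and over 441 coding bases Hbb-bs and Hbb-bt differed at 1 base, C417T (Hba-a1 or Hbb-bs base first, positions counted from 1 at the first base of the start codon). Both differences lie at the third base of a codon, 127 in the alpha genes and 139 in the beta genes. The transcripts shared an unbroken identical run of 415 bases in the alpha pair and of 430 bases in the beta pair. Stretches of 90 coding bases around the difference are shown with the differing base in capitals, 5′ to 3′ on the coding strand, to show how little separates the copies. They were read from GENCODE M21 gene models on GRCm38 and lie in coding exon 3, at chr11:32284298-32284387 (plus strand, Hba-a1), chr11:32297115-32297204 (plus strand, Hba-a2), chr7:103826668-103826757 (minus strand, Hbb-bs) and chr7:103812659-103812748 (minus strand, Hbb-bt).
Hba-a1: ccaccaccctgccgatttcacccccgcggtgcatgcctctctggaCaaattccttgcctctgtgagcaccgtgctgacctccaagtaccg
Hba-a2: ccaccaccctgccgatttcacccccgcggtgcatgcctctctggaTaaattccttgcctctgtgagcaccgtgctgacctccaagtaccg
Hbb-bs: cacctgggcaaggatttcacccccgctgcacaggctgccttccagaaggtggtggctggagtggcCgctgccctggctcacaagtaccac
Hbb-bt: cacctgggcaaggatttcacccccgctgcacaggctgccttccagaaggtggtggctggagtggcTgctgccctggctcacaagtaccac
A read that crosses neither the differing base nor an untranslated end cannot be assigned to 1 copy from its sequence, and how the authors assigned such reads is not given in the sources used here.

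The deposited rows also overlap. The Hba-a1 row (ENSMUSG00000069919) runs over chr11:32283511-32297298, 13788 bp, where the GENCODE M21 gene spans 955 bp, so the row covers Hbq1b and the whole of Hba-a2 (ENSMUSG00000069917, chr11:32296489-32297298). The Hbb-bt row (ENSMUSG00000073940) runs over chr7:103812524-103828096, 15573 bp against 1473 bp in the annotation, and covers the whole of Hbb-bs (ENSMUSG00000052305, chr7:103826534-103828096). Alas2 (ENSMUSG00000025270) has its annotated span, chrX:150547375-150570638, and its row overlaps that of Apex2. Of the 21762 rows matched to the annotation, 92.5% have the annotated start and end. The length that the authors divided by is not recorded for the 2 extended rows. Values of single copies are therefore uncertain, and sums over the copies are given beside them. The sums are uncertain too, since whether a read was counted in both of 2 overlapping rows is unknown.

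The promoters are shown as a description beside the levels, in which the 4 globin genes varied together over the libraries and Alas2 did not vary with them. Copies may share reads, so their varying together is partly built in. No link between promoter sequence and these levels was tested. Each stretch holds the 250 bases before the RefSeq start on GRCm38.p6, 5′ to 3′ on the gene's strand, with capitals where any of 4 motifs matched on either strand: the GATA motif (AGATAA and AGATAG, along with TGATAA and also TGATAG), the CACCC box, the CCAAT box and TATAA. The windows of Hba-a1 and Hba-a2 shared an identical run of 297 of 300 bases, counting 50 bases past the start, so the Hba-a1 window (chr11:32283422-32283671, plus strand) stands for both. The others are chr7:103827929-103828178 (minus strand, Hbb-bs), chr7:103813924-103814173 (minus strand, Hbb-bt) and chrX:150547167-150547416 (plus strand, Alas2).
Hba-a1: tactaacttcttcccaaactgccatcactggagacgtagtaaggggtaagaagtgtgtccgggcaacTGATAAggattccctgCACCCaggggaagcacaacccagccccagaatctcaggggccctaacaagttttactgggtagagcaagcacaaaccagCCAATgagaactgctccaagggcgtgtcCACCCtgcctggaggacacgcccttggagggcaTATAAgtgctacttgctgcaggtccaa
Hbb-bs: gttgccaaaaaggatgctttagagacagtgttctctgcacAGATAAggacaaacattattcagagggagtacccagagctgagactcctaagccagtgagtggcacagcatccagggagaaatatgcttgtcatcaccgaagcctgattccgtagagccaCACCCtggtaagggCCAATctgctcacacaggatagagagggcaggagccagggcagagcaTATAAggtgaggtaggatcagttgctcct
Hbb-bt: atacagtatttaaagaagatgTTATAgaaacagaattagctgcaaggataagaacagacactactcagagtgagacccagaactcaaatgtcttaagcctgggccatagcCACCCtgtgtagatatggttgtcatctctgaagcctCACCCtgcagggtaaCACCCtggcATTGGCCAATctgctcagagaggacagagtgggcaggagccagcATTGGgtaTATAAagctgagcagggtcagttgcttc
Alas2: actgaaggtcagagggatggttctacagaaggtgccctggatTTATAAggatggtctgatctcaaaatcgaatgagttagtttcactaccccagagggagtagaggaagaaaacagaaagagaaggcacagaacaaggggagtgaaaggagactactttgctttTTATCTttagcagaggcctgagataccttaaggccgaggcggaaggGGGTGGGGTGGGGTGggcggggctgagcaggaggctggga
In the Hba-a1 window TATAA began 27 bases before the start and CCAAT 88 bases before it, and in the Hbb-bs window these distances were 29 and 76 bases. Hbb-bt had TATAA at 28 bases and 3 matches of CCAAT, at 80, 75 and 36 bases, 2 of them on the other strand. Alas2 had no match of CCAAT, its TATAA match on the gene's strand lay 207 bases before the start, overlapping another on the opposite strand, and its 3 matches of CACCC, at 40, 35 and 30 bases, were on the opposite strand. A GATA match was present in the windows of Hba-a1 (183 bases), Hbb-bs (210 bases) and Alas2 (86 bases, opposite strand), and the letters searched did not occur in the Hbb-bt window. Of 32851 mouse promoter windows of the same length, 26.5% held a GATA match, 52.0% CACCC, 33.8% CCAAT and 22.8% TATAA, so a match to any 1 motif is common. Unlike the alpha pair, the windows of the 2 beta copies shared no identical run longer than 14 bases.

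Values are FPKM, fragment counts scaled to transcript length and library depth, as the authors deposited them, and the number of reads behind a value is unknown. The FPKM of the mRNA table summed to between 371958 and 393938 per library, and between 9979 and 10321 genes reached 1 FPKM. On the first principal component of the 11557 genes tested (51.2% of the variance) the 6 treated libraries lay apart from saline. The second component (12.6%) set control replicate 3, at 32.6, apart from its 2 fellow replicates, at −15.6 and −16.2. Fitted differences of members that rest on that library are therefore given with and without it. Replicates are separate titled samples, and nothing in the labels says that each is a separate mouse, so p-values measure the spread between these samples.

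Globin mRNA was highest in the APAP livers, and the other groups overlapped. Summed over the 4 globin genes it was 335, 358 and 355 FPKM in dmPGE2+APAP replicates 1 to 3, 1082, 630.5 and 492 FPKM in APAP replicates 1 to 3, and 428, 467 and 318 FPKM in control replicates 1 to 3. Every APAP library lay above every library of the other groups, and the dmPGE2+APAP libraries lay within the range of the controls. The means were 349 ± 12.8 FPKM with dmPGE2 and APAP, 735 ± 309 FPKM with APAP alone and 404 ± 77.3 FPKM in controls (SD, n = 3 here and throughout). The 4 genes made up 0.0861% to 0.0918% of the FPKM of a library with dmPGE2 and APAP, 0.132% to 0.286% with APAP alone and 0.0825% to 0.123% in controls. Among the APAP libraries, replicate 1 stood highest for each of the 4 genes.

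Alas2 did not follow the globin genes. It was at 29.4, 29.9 and 34.5 FPKM in dmPGE2+APAP livers, 31.4, 28.0 and 27.4 FPKM in APAP livers, and 22.8, 27.7 and 42.8 FPKM in controls. The 3 groups overlapped, and the controls alone spanned the values of both treated groups. Alas2 per 100 FPKM of summed globin was 8.79, 8.36 and 9.71 with dmPGE2 and APAP, 2.90, 4.44 and 5.56 with APAP alone, and 5.33, 5.93 and 13.4 in controls. The APAP and dmPGE2+APAP groups did not overlap in this ratio, whereas the APAP group and the controls did, and the highest ratio of all was that of control replicate 3. No test was run on this ratio, which is a value computed over chosen genes.

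**Figure D1:**
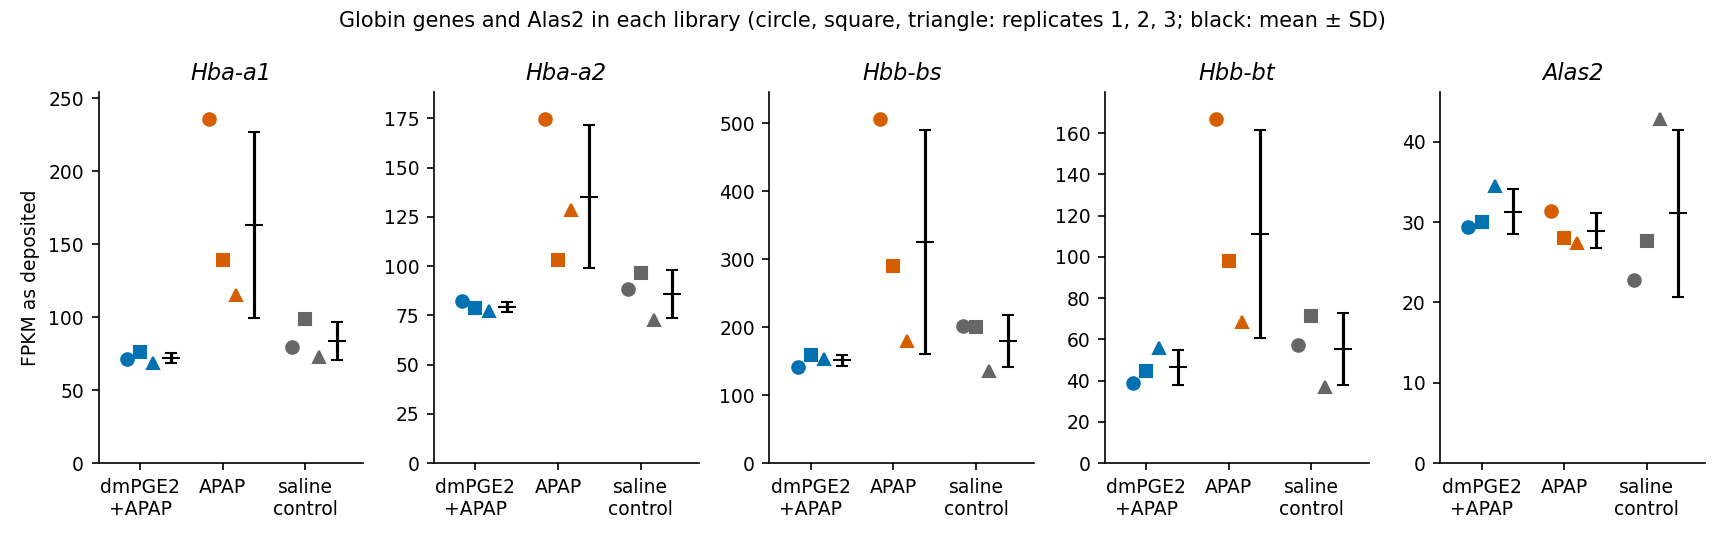
Deposited FPKM (y axis, from 0, a separate scale for each gene) of the 4 globin genes and Alas2 in each of 9 liver libraries, grouped as dmPGE2+APAP (blue), APAP (orange) and saline control (grey). Circles, squares and triangles are replicates 1, 2 and 3, and the black mark and bar are the mean ± SD (n = 3). APAP replicate 1 is at the top of each of the 4 globin panels, while the Alas2 points of the 3 groups overlap.

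The comparison of APAP with control asks what the overdose does by 6 h. Both alpha copies rose and both beta copies had fitted differences of similar size that missed the threshold. Hba-a1 was at 235.5, 139 and 115 FPKM in APAP livers and at 79.8, 98.6 and 72.9 FPKM in controls, with no overlap. Its mean was 163 ± 63.7 FPKM in APAP livers and 83.8 ± 13.3 FPKM in controls, a 2.02-fold rise (log2 1.02, SE 0.246, 95% interval 0.46 to 1.57, limma adjusted p = 0.0194). Hba-a2, the downstream alpha copy, was at 174, 103 and 128 FPKM in APAP livers and at 88.5, 96.7 and 72.7 FPKM in controls, again with no overlap. It rose 1.67-fold (log2 0.74, SE 0.190, 95% interval 0.31 to 1.17, limma adjusted p = 0.0242). Over all 11557 genes tested, 2405 passed in this comparison (20.8%) and 10.9% passed with a higher level, against 2 of the 5 members, so a pass is not rare here. The groups did not overlap with APAP higher for 12.9% of all genes, against the same 2 members. Without APAP replicate 3 the number passing was 1524 and without control replicate 2 it was 1601. Of those passing, 52.4% were higher, and 31.6% with no rescaling between libraries, under which both alpha copies still rose.

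Hbb-bs, which had the most FPKM of the members in every library, was at 506, 290.4 and 180.4 FPKM in APAP livers and at 202, 200.5 and 136 FPKM in controls. APAP replicate 3 lay below control replicates 1 and 2, so the groups overlapped. The fitted difference was log2 0.87 (SE 0.339, 95% interval 0.10 to 1.63) and did not pass (limma adjusted p = 0.101). Hbb-bt was at 167, 98.0 and 68.3 FPKM in APAP livers and at 57.3, 71.4 and 36.9 FPKM in controls, and the overlap was between APAP replicate 3 and control replicate 2. Its fitted difference was log2 1.07 (SE 0.350, 95% interval 0.28 to 1.86, limma adjusted p = 0.0590). Without APAP replicate 3 both beta copies passed, at log2 1.25 for Hbb-bs (limma adjusted p = 0.0219) and 1.39 for Hbb-bt (limma adjusted p = 0.0315).

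The beta copies summed to 436 ± 216 FPKM in APAP livers and 235 ± 54.2 FPKM in controls, and the alpha copies to 299 ± 96.5 FPKM in APAP livers and 170 ± 24.9 FPKM in controls. The alpha sums did not overlap, at 410, 242 and 244 FPKM in APAP livers and 168, 195 and 146 FPKM in controls. The beta sums did, because APAP replicate 3 held 249 FPKM where control replicates 1 and 2 held 260 and 272 FPKM. Alas2 differed by log2 0.055 between APAP and control (SE 0.186, 95% interval −0.36 to 0.47, limma adjusted p = 0.860). The interval includes 0 and reaches neither the fitted value of Hba-a1 nor that of Hbb-bt. On FPKM with no rescaling the Alas2 difference turned to −0.056, and without control replicate 3, whose Alas2 value was the highest of the 9, it was 0.28 (limma adjusted p = 0.157).

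The globin differences from control depend in part on single libraries. Without APAP replicate 1, the library with the most globin mRNA, Hba-a1 differed by log2 0.72 (limma adjusted p = 0.0315) and Hba-a2 by 0.54 (limma adjusted p = 0.0595). Without it Hbb-bs differed by 0.48 and Hbb-bt by 0.73, neither passing. Hba-a1 lost its call without control replicate 1 (limma adjusted p = 0.0527), and Hba-a2 lost it without APAP replicate 3 (0.0567, limma adjusted p) or control replicate 3 (0.0559, limma adjusted p). Fitted to the 6 libraries of these groups alone, neither alpha copy passed, with limma adjusted p = 0.0507 for Hba-a1 and 0.0603 for Hba-a2. The 4 globin differences stayed positive in every alternative tried.

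The comparison of dmPGE2+APAP with APAP asks what the prostaglandin analogue changes in the injured liver. All 4 globin genes were lower in dmPGE2+APAP livers without overlap with APAP livers, and none passed the test. Hba-a1 was at 71.4, 76.0 and 68.9 FPKM in dmPGE2+APAP livers, against 115 to 235.5 FPKM in APAP livers. Its fitted difference was log2 −1.08 (SE 0.246, 95% interval −1.64 to −0.53), with an unadjusted p of 0.00164 in limma, rank 62 of 11557 genes, and limma adjusted p = 0.299. Hba-a2 was at 82.2, 78.8 and 77.2 FPKM in dmPGE2+APAP livers, against 103 to 174 FPKM in APAP livers (log2 −0.71, SE 0.190, limma adjusted p = 0.335). The 3 dmPGE2+APAP libraries lay close together, with an SD of 3.59 FPKM for Hba-a1 and 2.54 FPKM for Hba-a2.

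Hbb-bs was at 142, 159 and 153 FPKM in dmPGE2+APAP livers, against 180.4 to 506 FPKM in APAP livers (log2 −0.95, SE 0.339, limma adjusted p = 0.448). Hbb-bt was at 38.9, 44.7 and 55.6 FPKM in dmPGE2+APAP livers, against 68.3 to 167 FPKM in APAP livers (log2 −1.15, SE 0.350, limma adjusted p = 0.388). No gene of the 11557 passed in this comparison (0% called in limma, smallest adjusted p = 0.146), while 1065 genes, 9.22%, had an unadjusted p under 0.05. Without dmPGE2+APAP replicate 1 there were 38 that passed, without APAP replicate 2 there were 2 and without APAP replicate 3 there was 1, none of them a member. The groups did not overlap with dmPGE2+APAP lower for 8.93% of all genes tested, against 4 of the 5 members, which share reads and so are not 4 separate observations. Alas2 differed by log2 0.14 (SE 0.186, 95% interval −0.28 to 0.56, limma adjusted p = 0.849). This comparison and the last share the APAP libraries, so a high value in APAP replicate 1 enters both with opposite signs.

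Without APAP replicate 1, the differences of dmPGE2+APAP from APAP were log2 −0.78 for Hba-a1, −0.51 for Hba-a2, −0.57 for Hbb-bs and −0.80 for Hbb-bt. All 4 kept their negative sign in every alternative tried, from −1.47 to −0.51 over the members, and none passed in any of them. With 3 libraries against 3, the smallest p an exact permutation test could reach for 1 gene is 0.1, and all calls therefore draw on limma's pooling of the spread over genes.

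Set against controls, dmPGE2+APAP livers showed no detected difference in any member. The fitted log2 differences were −0.068 for Hba-a1, 0.032 for Hba-a2, −0.086 for Hbb-bs, −0.077 for Hbb-bt and 0.19 for Alas2, with limma adjusted p-values between 0.525 and 0.925. All 5 genes overlapped between these groups, in a comparison in which 16.4% of the genes tested passed and 42.4% did not overlap. With no rescaling the Hba-a2 difference turned to −0.11. The 95% intervals ran from −0.62 to 0.49 for Hba-a1 and from −0.87 to 0.71 for Hbb-bt, so a change of the size fitted between APAP and control lay outside them while smaller ones did not. Without control replicate 3, which had the lowest summed globin of the controls, the differences were −0.19 for Hba-a1, −0.12 for Hba-a2, −0.31 for Hbb-bs and −0.37 for Hbb-bt, and that of Alas2 was 0.42 (limma adjusted p = 0.0601).

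**Figure D2:**
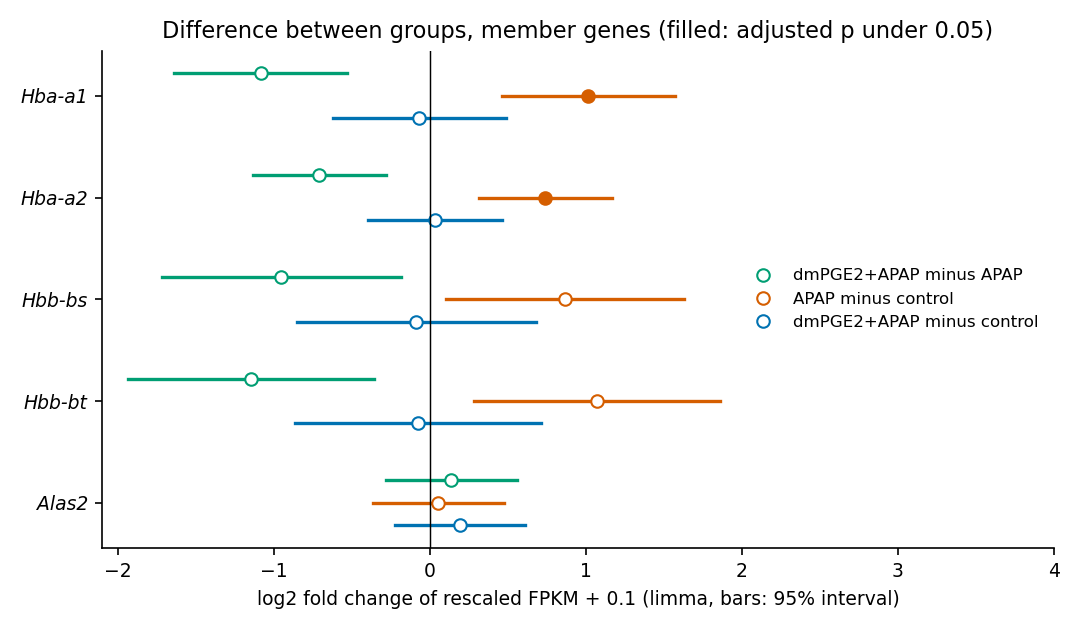
Log2 fold changes (x axis, on rescaled FPKM plus 0.1) of the 5 members for dmPGE2+APAP minus APAP (green), APAP minus control (orange) and dmPGE2+APAP minus control (blue). Points are limma estimates, bars 95% intervals and filled points adjusted p under 0.05, which Hba-a1 at 1.02 and Hba-a2 at 0.74 reached for APAP minus control.

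Among the members, levels per length had 1 order in outline. Hbb-bs averaged 151 ± 8.43, 326 ± 165 and 179.5 ± 38.1 FPKM in dmPGE2+APAP, APAP and control livers. The alpha copies came next by mean, and the only overlap with Hbb-bs was that of Hba-a1 in the APAP group. Hba-a1 lay below Hba-a2 in the dmPGE2+APAP group without overlap, and the 2 copies overlapped in the APAP and control groups. Hbb-bt averaged 46.4 ± 8.50, 111 ± 50.4 and 55.2 ± 17.4 FPKM in the same 3 groups, below both alpha copies in the dmPGE2+APAP and control groups and overlapping with them in the APAP group. Alas2, at 31.3 ± 2.79, 28.9 ± 2.19 and 31.1 ± 10.4 FPKM, was the lowest on average in each group, overlapping with Hbb-bt among controls. By rank within the library, Hbb-bs stood at places 325, 297 and 310 of all genes with dmPGE2 and APAP, at 97, 163 and 242 with APAP alone and at 231, 236 and 340 in controls.

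The balance between chains and between copies overlapped between the groups. The beta sum over the alpha sum lay between 1.02 and 1.64 in the 9 libraries, averaging 1.31 ± 0.126 with dmPGE2 and APAP, 1.42 ± 0.348 with APAP alone and 1.37 ± 0.181 in controls, and the groups overlapped. Hbb-bs over Hbb-bt averaged 3.32 ± 0.491, 2.88 ± 0.210 and 3.34 ± 0.466 in the same order. Hba-a1 over Hba-a2 was 0.869, 0.965 and 0.893 with dmPGE2 and APAP, 1.35, 1.35 and 0.897 with APAP alone, and 0.902, 1.02 and 1.00 in controls. The ratio was highest in APAP replicates 1 and 2, and APAP replicate 3 lay with the other groups. These copies differ at 1 coding base and the Hba-a1 row spans Hba-a2, so the split between them is uncertain.

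**Figure D3:**
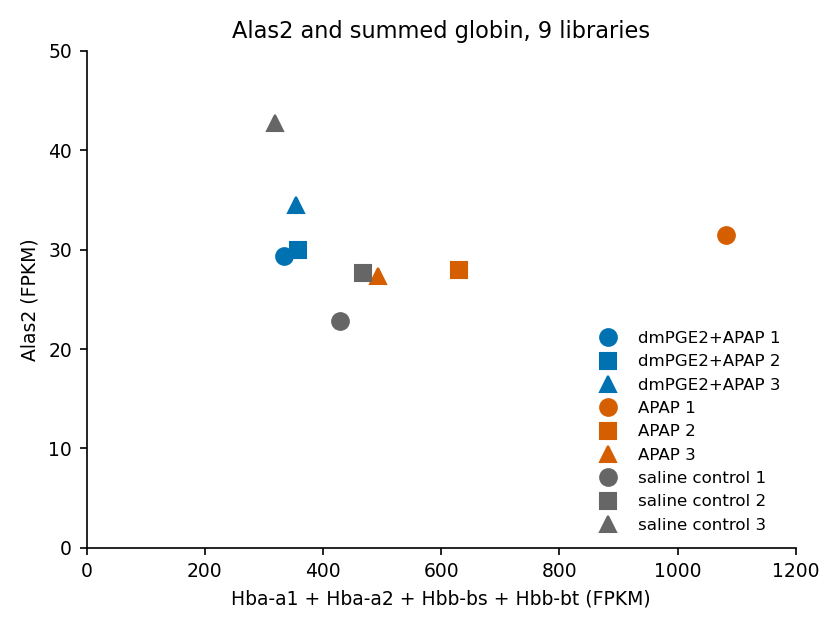
Alas2 (y axis, FPKM) against the sum of Hba-a1, Hba-a2, Hbb-bs and Hbb-bt (x axis, FPKM) in 9 liver libraries, both axes from 0. Marks are single libraries (blue dmPGE2+APAP, orange APAP, grey control; circle, square and triangle for replicates 1 to 3). Globin runs from 318 FPKM in control replicate 3 to 1082 FPKM in APAP replicate 1, while Alas2 stays between 22.8 and 42.8 FPKM and is highest where globin is lowest.

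Beyond the members, few transcripts of red cells or their precursors were present. The band 3 gene Slc4a1, the main anion exchanger of the red cell membrane, was at 0.0312 to 0.0455 FPKM in dmPGE2+APAP livers, 0.0387 to 0.108 FPKM in APAP livers and 0.0263 to 0.110 FPKM in controls. Gata1, the master transcription factor of erythroid cells, was listed at 0.0134 FPKM in dmPGE2+APAP replicate 1, at 0 in dmPGE2+APAP replicates 2 and 3, at 0.0168 to 0.0350 FPKM in APAP livers and at 0 in all controls. Ahsp, the alpha globin chaperone gene, was not analysed here. As a check of the label, globin and Alas2 mRNA were therefore plain in every library, while the membrane gene Slc4a1 and the erythroid regulator Gata1 were at or near 0. Whether Alas2 mRNA reflects red cells in these livers was not tested.

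The 6 other globin genes measured, those of the embryo and the theta-like Hbq1a and Hbq1b, were not tested, since none reached the 0.5 FPKM required in 3 libraries. Their highest value was 0.248 FPKM, for Hbq1a in APAP replicate 1, and the embryonic beta-like genes Hbb-y, Hbb-bh1 and Hbb-bh2 were listed at 0 in every library. Of 19 genes for the red cell membrane and skeleton 4 could be tested, and none passed against control in APAP livers (median log2 difference −0.13, against −0.032 for all genes tested). Those 4, Aqp1, Epb41, Gypc and Xk, are expressed in many tissues. Of 12 erythroid transcription factor genes 6 could be tested and none passed (median −0.18). Klf1, the activator of adult beta globin, was at 0.861, 0.871 and 1.49 FPKM in dmPGE2+APAP livers, 1.01, 0.764 and 0.989 FPKM in APAP livers, and 1.84, 1.49 and 1.52 FPKM in controls. The APAP livers lay below the controls without overlap, and the difference did not pass (log2 −0.65, limma adjusted p = 0.0672).

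Transcripts that reticulocytes carry moved in both directions between APAP and control. Of 18 listed genes 14 were tested, 2 rose and 2 fell, and their median log2 difference was 0.12. Tent5c, a poly(A) polymerase gene, rose 1.64-fold to 3.44 ± 0.165 FPKM in APAP livers, against 2.22 ± 0.221 FPKM in controls (limma adjusted p = 0.00147), and was also higher in dmPGE2+APAP livers than in controls (log2 0.80). Ube2o, the ubiquitin ligase gene that clears proteins from maturing reticulocytes, rose by log2 0.36, a call that held only without control replicate 2 when 1 library was left out (limma adjusted p up to 0.0877 otherwise). Steap3, a ferrireductase gene, fell by 0.55 on the log2 scale, a call lost without control replicate 1 (limma adjusted p = 0.0559) or control replicate 2 (0.0822, limma adjusted p). Abcb10, a mitochondrial transporter gene, fell by 0.62, a call lost without APAP replicate 1 (limma adjusted p = 0.0644). The mitochondrial iron importer gene Slc25a37 (mitoferrin 1) differed by −0.28 and Bpgm, which makes 2,3-bisphosphoglycerate, by −0.29, and neither passed.

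Tfrc, the transferrin receptor gene through which cells take up iron, was at 22.8, 21.6 and 26.6 FPKM in APAP livers and at 23.1, 23.4 and 8.18 FPKM in controls, where replicate 3 lay far below the other 2. Its difference of log2 0.63 did not pass (limma adjusted p = 0.256). Control replicates 1 and 2 lay within the range of the APAP livers, so this difference rests on control replicate 3, and no fit of Tfrc without it is given.

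**Figure D4:**
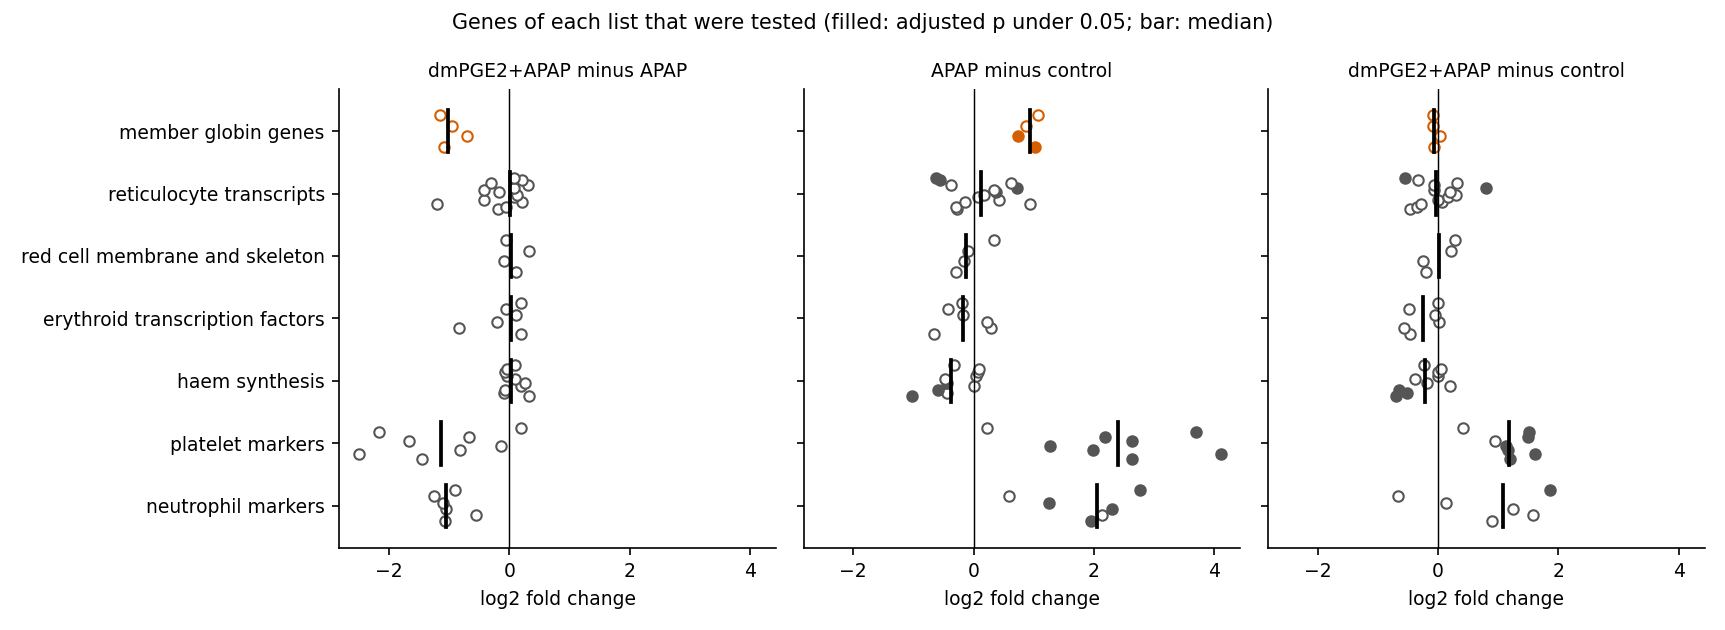
Log2 fold changes (x axis, same scale in the 3 panels) of every tested gene of the member globins (orange) and of 6 other gene lists (grey), for dmPGE2+APAP minus APAP, APAP minus control and dmPGE2+APAP minus control. Points are genes, filled where the limma adjusted p is under 0.05, and bars are list medians. In APAP minus control the platelet markers have a median of 2.40 and the neutrophil markers of 2.04, above all 4 globins, while the red cell membrane list has a median of −0.13. The platelet and neutrophil medians include Gp9 and Clec4d, which passed the filter only through the APAP libraries.

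Like Alas2, the other haem synthesis genes did not rise with the globins. Of 10 genes, all tested, none rose and 3 fell in APAP livers relative to controls (median −0.38). Alas1, the housekeeping counterpart of Alas2, fell to 84.5 ± 12.6 FPKM in APAP livers, against 187 ± 35.6 FPKM in controls (log2 −1.02, limma adjusted p = 0.00539). Urod, which acts further along the pathway, fell by 0.44 on the log2 scale. Fech, which inserts iron in the last step, differed by 0.075 and did not pass (limma adjusted p = 0.842). In dmPGE2+APAP livers Alas1 and Alad were among those lower than in controls (log2 −0.70 and −0.52), and with 1 library left out at a time between 0 and 2 of the 10 genes passed. Alas1 FPKM over Alas2 FPKM was 2.89 to 3.78 with dmPGE2 and APAP, 2.56 to 3.28 with APAP alone, and 8.38, 7.94 and 3.48 in controls.

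Genes that clear haemoglobin and haem were split. Of 12 genes, all tested, 3 rose and 3 fell in APAP livers relative to controls (median 0.20). Hmox1, the inducible haem oxygenase, rose 32.1-fold to 303 ± 47.3 FPKM in APAP livers, against 10.2 ± 2.41 FPKM in controls (limma adjusted p = 7.04e-06). The ferritin gene Fth1, whose product stores iron, rose by log2 0.69, while the iron exporter gene Slc40a1 (ferroportin) fell by 1.42. The other 3 calls were less stable: with 1 library left out at a time the number of the list that rose was 2 to 3 and the number that fell was 1 to 3. They were those of Ftl1, the other ferritin gene (log2 0.57), and of the biliverdin reductase genes Blvra (−0.61) and Blvrb (−0.49). Hp and Hpx, whose products bind free haemoglobin and free haem in plasma, differed by log2 0.19 and 0.20 and did not pass. Cd163, the macrophage receptor for haptoglobin bound to haemoglobin, was higher in dmPGE2+APAP livers than in controls, at 9.65 ± 0.865 FPKM against 6.23 ± 1.45 FPKM (log2 0.78, limma adjusted p = 0.0481). That call held only without control replicate 1 when 1 library was left out (limma adjusted p 0.0941 to 0.135 otherwise). In APAP livers it was at 7.84 ± 2.22 FPKM and did not pass against control.

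In dmPGE2+APAP livers Hmox1 was at 209 ± 49.9 FPKM, 22.2-fold above controls, and its difference from APAP livers did not pass (log2 −0.53, limma adjusted p = 0.536). Of the 8 genes of the erythropoietin axis, 5 were tested. Epo, the hormone gene, reached at most 0.429 FPKM and its receptor gene Epor at most 0.546 FPKM, so neither was tested. Jak2, the kinase bound to the receptor, rose by log2 0.45 in APAP livers relative to controls, and Kit, a receptor of blood progenitors and other cells, fell by 0.90. Neither call held throughout: without control replicate 2, for example, limma adjusted p was 0.113 for Jak2 and 0.0663 for Kit, and each was also lost without APAP replicate 1 or 3.

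Platelet and neutrophil markers, which mark other blood cells, were also higher in APAP livers. Of 13 platelet markers 8 were tested, and 7 rose and none fell in APAP livers relative to controls (median log2 difference 2.40). Gp9, counted among them, passed the filter at 0.5 FPKM only through the APAP libraries, where it was high. It was at 0.783 to 1.40 FPKM there and at most 0.431 FPKM in the other groups, so its call is partly built in. All 13 summed to 12.2 to 19.0 FPKM in dmPGE2+APAP livers, 25.6 to 29.1 FPKM in APAP livers and 5.92 to 10.3 FPKM in controls. Ppbp, a platelet chemokine gene, was at 3.16, 0.739 and 0.660 FPKM in dmPGE2+APAP livers, 7.02, 6.67 and 7.99 FPKM in APAP livers, and 0.396, 0.328 and 0.337 FPKM in controls. In the dmPGE2+APAP livers 6 of the 8 were above controls in the test (median 1.18), while none passed against APAP livers (median −1.13). With 1 library left out at a time, 6 to 7 rose in APAP livers and 4 to 6 in dmPGE2+APAP livers, both relative to controls. Gp9 dropped out of the test whenever an APAP library was left out, so the first range partly reflects the filter. Among the APAP libraries, replicate 1, highest for globin, was also the highest for the platelet markers Gp9, Itgb3 and Clec1b. It was not the highest for Ppbp, Pf4, Itga2b, Gp5 or Tubb1.

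Of 14 neutrophil markers 6 were tested, and 4 rose and none fell in APAP livers relative to controls (median 2.04). Clec4d, counted among them, passed the filter at 0.5 FPKM only through the APAP libraries. It was at 0.574 to 0.981 FPKM there and at most 0.412 FPKM in the other groups, so its call is partly built in. With 1 library left out at a time the number that rose was 1 to 3. Clec4d dropped out of the test whenever an APAP library was left out, so this range partly reflects the filter. All 14 summed to 5.63 to 11.9 FPKM in dmPGE2+APAP livers, 10.8 to 43.3 FPKM in APAP livers and 2.96 to 7.29 FPKM in controls. The highest sum was in APAP replicate 1, the library with the most globin, where S100a8, a calcium-binding protein gene of neutrophils, was at 16.2 FPKM against 4.21 and 4.71 FPKM in the other APAP livers. Camp was listed at 0 in every library, and Ly6g and Elane, which also define neutrophils, were at most 0.0910 FPKM and 0.190 FPKM. Of 12 lymphocyte markers 1 was tested and did not pass. The part that the blood content of the tissue had in these values, and in those of the globin genes, was not tested.

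Markers of the liver's own cells were counted in the same way. None of 8 tested hepatocyte markers passed in any comparison, and their sums were 43163 to 47894 FPKM in dmPGE2+APAP livers, 41626 to 48913 FPKM in APAP livers and 36062 to 39719 FPKM in controls. Of 12 Kupffer cell markers, genes of the resident macrophages that engulf old red cells, Cd68 alone passed as higher in APAP livers than in controls (log2 0.75). None passed as lower, although 10 had a negative log2 difference and 2 a positive one (median −0.12). Their sums were 184 to 196 FPKM in dmPGE2+APAP livers, 105 to 182 FPKM in APAP livers and 164 to 187 FPKM in controls. Of 11 markers of the sinusoidal endothelium, Lyve1 rose (log2 1.81) and Kdr and Gpr182 fell (−0.63 and −0.91) in APAP livers relative to controls, and Stab1 rose in a call lost without APAP replicate 1 or 3 or control replicate 1 or 2.

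The genes whose levels were most like the members were sought with the mean rescaled log2 FPKM of the 5 members, over 9 libraries that share groups and scaling. With group means kept, the highest Pearson correlations were those of Bmp8b (0.94), Isg20 (0.93), Impa2 (0.92), Exoc1 (0.91), Cntnap1 (0.89), Coq9 (0.89), Lamb3 (0.89), Ctps (0.89), Ell (0.88) and Tmem262 (0.88). Isg20, an exonuclease gene, is the 1 among them that also stood on the reticulocyte list, at 1.01 ± 0.0844 FPKM in dmPGE2+APAP livers, 1.45 ± 0.420 FPKM in APAP livers and 1.11 ± 0.131 FPKM in controls. It did not pass in any comparison. With group means taken off, Atp5g3 (0.98), Rbck1 (0.97) and Dhodh (0.97) came first, followed by Mvb12a, Asna1, Ssh1, Mrpl12, Pfn1, Ten1 and Apof (0.95 or above), and no gene stood in both sets of 10. Among the members themselves Hba-a1 correlated at 0.98 with that mean after group means were taken off and Alas2 at 0.023. That mean holds each member itself and, apart from Alas2, is made of globin genes whose copies may share reads. A high value for a globin gene and a lower one for Alas2 are therefore partly built in, and no conclusion is drawn from them. Members aside, the sets of 10 genes hold the highest of 11557 correlations over 9 libraries and are given as descriptions.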

How the data were processed

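Ribosomal RNA was removed from total liver RNA and strand-marked libraries were made, per the labels' protocols. The submitters' processing notes name GRCm38 (mm10) and HISAT2; the program that gave FPKM and the annotation are not given in the sources used here. FPKM per gene was deposited by the authors. The deposited tables named as read counts hold scores, not counts: among lncRNA scores of 1000 or more, 100% came within 1% of FPKM times genomic span times a constant per library, and mRNA scores summed to 296.8 to 399.3 M per library. Depth and counting error are therefore unknown, and a count test could not be used.

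FPKM was divided by a scale factor, the unweighted mean log ratio after trimming (30% of ratios, 5% of abundances), averaged over each library as reference, 0.1 was added and log2 taken; folds of genes near 0.1 FPKM are understated. The rescaling shifted log2 differences by 0.111 for APAP against control, 0.0268 for dmPGE2+APAP against APAP and 0.138 for dmPGE2+APAP against control, and folds are given relative to that. The filter kept genes that reached 0.5 FPKM in 3 or more libraries (11557 genes; all 5 members, each above that level in all 9 libraries). limma 3.58.1 in R 4.3.3 fitted 3 group means to 9 libraries (6 residual degrees of freedom, abundance trend, two-sided, Benjamini-Hochberg adjustment at 0.05) and was tested on simulated data. Means and SDs are of deposited FPKM.

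Members and gene lists were chosen with earlier results of these data known. Named beyond the members are 16 genes given whatever their values and, per list, up to 4 passing genes with the largest change; some items are not reported here. Likeness is the Pearson correlation with the members' mean. Alternatives were other pseudocounts, filters and scalings, fewer libraries and a replicate block; list counts with 1 library left out were added after seeing the data. Sequences are RefSeq promoters on GRCm38.p6 and GENCODE M21 coding sequences. Replicate numbers did not pair samples (correlation of deviations −0.117 to 0.0719).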

Additional observations from a re-analysis of the deposited data

How the results depend on the processing

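Of 210 alternative fits of single members, 191 kept the direction and the side of the threshold. Of the other 19, 11 turned a small, uncalled difference: with no rescaling, Alas2 in APAP against control (−0.056) and Hba-a2 in dmPGE2+APAP against control (−0.11), and the rest on leaving out 1 library. With 1 library left out, the log2 difference between APAP and control ran from −0.13 to 0.28 for Alas2, and that between dmPGE2+APAP and control from −0.19 to 0.071 for Hba-a1, −0.12 to 0.14 for Hba-a2, −0.31 to 0.030 for Hbb-bs and −0.37 to 0.15 for Hbb-bt. Between APAP and control the range was 0.72 to 1.25 for Hba-a1, 0.54 to 0.90 for Hba-a2, 0.48 to 1.25 for Hbb-bs and 0.73 to 1.39 for Hbb-bt. Another 6 lost a call of an alpha copy and 2 gained one of a beta copy, as described in the text. The number of genes passing ran from 1524 to 2287 for APAP against control, from 0 to 38 for dmPGE2+APAP against APAP and from 1034 to 1725 for dmPGE2+APAP against control when 1 library was left out, and fitted to the 2 groups alone it was 2 for dmPGE2+APAP against APAP. With the replicate number as a block, 2036, 0 and 1482 genes passed in these 3 comparisons and no call of a member changed. With dmPGE2 and APAP, dividing by the scale factor moved the mean globin sum to 363 FPKM and the mean alpha sum to 157 FPKM. With 1 library left out, 2 to 4 haem synthesis genes were lower in APAP livers than in controls, and 1 to 2 clearance genes were higher in dmPGE2+APAP livers than in controls (3 with all libraries). The cause of these changes was not tested. Reads behind single copies cannot be counted, so the values of copies are uncertain. Sums are uncertain too, since whether reads of overlapping rows were counted in both rows is unknown.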

Other observations

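The transcript-level table holds 5 further isoforms of the members (1 each of Hba-a1, Hba-a2 and Hbb-bs, and 2 of Alas2). The highest of their values in any library was 0.443 FPKM, far under the gene-level values. Rows within 100 kb of the globin clusters were also read. Around the beta cluster, 13 other rows, olfactory receptor genes and embryonic globin genes, were listed at 0 in every library. Around the alpha cluster the broadly expressed Nprl3, whose introns hold the distal alpha globin enhancers in mice, was at 5.28 to 6.38 FPKM in dmPGE2+APAP livers, 5.52 to 6.96 FPKM in APAP livers and 5.85 to 6.79 FPKM in controls. The DNA repair gene Mpg beside it was at 1.97 to 2.29 FPKM in dmPGE2+APAP livers, 1.83 to 2.58 FPKM in APAP livers and 2.57 to 3.18 FPKM in controls. Neither showed the high APAP values of the globin genes next to them.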
